A study of Mus musculus with 9 samples.

Results

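Endothelial cells line the blood vessels of the embryonic cortex, and pericytes wrap them. Marker genes of these cells, 10 in number, were chosen by name among the 35498 genes measured: Pecam1, Cdh5, Kdr, Tek and Eng of endothelium in general, Cldn5 and Slco1c1 of the blood-brain barrier, and Pdgfrb, Rgs5 and Kcnj8 of pericytes. All 10 were detected in every library and all 10 passed the filter on low counts.

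RNA was sequenced from whole cortical tissue of C57Bl/6 mouse embryos at E13.5, in 3 libraries for each of 3 genotypes. DKO libraries were Smarca1 -/- with 1 Cre allele, Smarca1 KO libraries were Smarca1 -/- without Cre, and WT libraries were Smarca1 +/+ without Cre. The series' design text names the Cre-carrying group as the double knockout of Smarca5 and Smarca1, the ATPases of the ISWI chromatin remodellers. The cells in which the Cre acts, the exons deleted and the Smarca5 genotype of the groups without Cre are not known from the labels. The labels do not say whether the libraries of a group are separate embryos, so a p-value measures the spread between these libraries, which may be technical.

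Smarca5 was at 80.2 ± 3.7 CPM in DKO, against 233.7 ± 18.6 CPM in Smarca1 KO, against 266.7 ± 4.4 CPM in WT (SD, n = 3 each), where CPM are counts relative to the TMM-scaled library size. Other genes hold 33.3% of the 31-mers of Smarca5. Smarca1 RNA was at 38.4 ± 0.43 CPM in DKO, 40.5 ± 4.5 CPM in Smarca1 KO, against 37.1 ± 0.71 CPM in WT. RNA outside deleted exons can persist, so these counts do not check the Smarca1 genotype, and the groups are called here by their labels. Counts summed over genes were 27466046 to 46007527 per library, and the 10 members had 100 to 3215 counts each in a library.

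The cortex makes no vessels of its own. Sprouts grow into it from a plexus in the meninges, drawn by Vegfa from neural progenitors, which acts on the receptor Kdr. Wnt ligands of the neural tissue switch on barrier genes in the endothelium. Pdgfb from endothelium recruits pericytes through Pdgfrb, and Angpt1 acts on Tek to steady the vessel wall.

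Promoters are shown for 3 endothelial genes whose levels moved together across the libraries (Kdr, Tek and Eng) and for 1 barrier gene (Cldn5). The other barrier gene, Slco1c1, departed further from Kdr, Tek and Eng over the libraries. Its Pearson r with them was 0.25, 0.09 and 0.03, against 0.69, 0.64 and 0.41 for Cldn5. RefSeq held a promoter for 7 of the 10 members (GRCm38.p6, 250 bases before to 50 after the start). Each run is written 5′ to 3′ on the strand of the gene, and capitals mark GGAA or its complement TTCC, the core of sites bound by ETS factors, a family that includes endothelial regulators. The regions are chr5:75978406-75978705 (minus strand, Kdr), chr4:94739039-94739338 (plus strand, Tek), chr2:32646345-32646644 (plus strand, Eng) and chr16:18776597-18776896 (plus strand, Cldn5).
Kdr: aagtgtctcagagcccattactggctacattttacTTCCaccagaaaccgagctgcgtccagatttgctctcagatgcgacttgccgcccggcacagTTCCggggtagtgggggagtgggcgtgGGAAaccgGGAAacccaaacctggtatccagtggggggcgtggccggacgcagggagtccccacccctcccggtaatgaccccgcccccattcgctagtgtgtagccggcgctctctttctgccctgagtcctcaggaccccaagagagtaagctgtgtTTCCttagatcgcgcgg
Tek: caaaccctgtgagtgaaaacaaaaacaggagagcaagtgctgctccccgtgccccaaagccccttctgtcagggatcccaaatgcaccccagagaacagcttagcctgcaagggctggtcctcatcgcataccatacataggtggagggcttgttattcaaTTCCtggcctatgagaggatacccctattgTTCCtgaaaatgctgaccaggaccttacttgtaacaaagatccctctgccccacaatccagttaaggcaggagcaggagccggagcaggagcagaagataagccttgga
Eng: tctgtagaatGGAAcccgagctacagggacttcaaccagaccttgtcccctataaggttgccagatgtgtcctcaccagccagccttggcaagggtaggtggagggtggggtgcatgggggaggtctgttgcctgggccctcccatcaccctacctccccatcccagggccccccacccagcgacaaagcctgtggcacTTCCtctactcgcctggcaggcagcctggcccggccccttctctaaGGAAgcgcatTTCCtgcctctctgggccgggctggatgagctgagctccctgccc
Cldn5: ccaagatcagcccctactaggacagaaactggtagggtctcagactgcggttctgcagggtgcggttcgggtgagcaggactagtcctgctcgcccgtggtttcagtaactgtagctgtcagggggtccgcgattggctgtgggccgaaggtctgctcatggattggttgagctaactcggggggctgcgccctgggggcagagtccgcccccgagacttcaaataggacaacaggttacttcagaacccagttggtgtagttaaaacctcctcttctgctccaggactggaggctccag
The window of Kdr held 5 matches to GGAA on both strands, that of Tek 2, that of Eng 4 and that of Cldn5 none. Of the members not printed, Slco1c1 had 8, Rgs5 had 4 and Kcnj8 had 1. GGAA was present in 96.0% of 32851 RefSeq mouse promoters of this length, with a median of 3 matches, so its presence does not set these genes apart. The longer AGGAAG, which contains GGAA, was found 2 times in the Eng window, 1 time in that of Slco1c1 and not in those of Kdr, Tek, Cldn5, Rgs5 or Kcnj8, against 35.4% of all promoters with a match. A match is a string of letters and not a shown binding site.

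Levels between genes can be compared only per transcript length, in TPM. Cldn5, which encodes a tight junction protein of the endothelium, had the highest TPM of the 10 in each genotype: 46.7 ± 9.4 in DKO, 53.8 ± 10.9 in Smarca1 KO and 44.1 ± 4.0 in WT (SD, n = 3 each). In WT it was followed by Rgs5 at 21.4 ± 1.2 TPM, Cdh5 at 20.2 ± 0.94, Kdr at 20.2 ± 0.73, Eng at 17.4 ± 1.2 and Pecam1 at 16.9 ± 1.0. Pdgfrb at 11.9 ± 0.31, Tek at 6.60 ± 0.16, Slco1c1 at 5.45 ± 0.20 and Kcnj8 at 3.08 ± 0.32 TPM closed the order in WT. The libraries overlapped there between Rgs5 and Cdh5, between Cdh5 and Kdr and between Eng and Pecam1, while the other neighbours were separate. In DKO and in Smarca1 KO, Kdr stood directly above Cdh5. Slco1c1 stood above Tek in Smarca1 KO, at 7.75 ± 2.1 against 5.97 ± 1.7 TPM, with overlapping libraries.

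The reads of 5 members came from 1 main transcript each (Cdh5, Kdr, Cldn5, Pdgfrb and Rgs5). Kdr-201 carried a median of 99.8% of the Kdr TPM over the 9 libraries, Rgs5-201 carried 96.0% of Rgs5, and Cldn5 has a single annotated transcript. The estimates were split for the other 5. Eng-201 carried a median of 56.8% of Eng, Tek-203 59.9% of Tek and Pecam1-203 48.6% of Pecam1. Kcnj8-202 carried a median of 62.1% of Kcnj8, with a range of 19.8% to 100%. The leading Slco1c1 transcript, Slco1c1-202, with 22.4% to 65.5% of the gene's TPM, is annotated as a target of nonsense-mediated decay, and the coding Slco1c1-201 ranged from 0% to 59.2%. Such swings between libraries of 1 genotype limit the split to a description, and gene sums were used for every comparison. Few 31-mers of the members occur in other genes, at most 2.5% (Pecam1). Eng overlaps Fpgs on the other strand, which reached 21.7 TPM, and whether the authors counted by strand is not stated.

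The endothelial members had a common order of libraries. Cdh5, the cadherin that joins endothelial cells (ENSMUSG00000031871.9, GRCm38 chromosome 8, 104101625 to 104144511), was at 47.9, 32.8 and 32.3 CPM in DKO replicates 1 to 3. It was at 52.2, 31.4 and 33.1 CPM in Smarca1 KO and at 44.3, 45.0 and 41.4 CPM in WT. Replicate 1 of DKO and replicate 1 of Smarca1 KO were above all WT libraries, and the other 4 DKO and Smarca1 KO libraries were below all of them. In bulk tissue such values cannot tell fewer cells of a type from less RNA per cell.

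Kdr, the main receptor through which Vegfa drives endothelial growth (ENSMUSG00000062960.10, chromosome 5, 75932827 to 75978458), was at 76.5, 51.3 and 50.1 CPM in DKO, 83.6, 43.2 and 55.7 CPM in Smarca1 KO, against 65.2, 66.5 and 62.3 CPM in WT. Tek, the receptor for angiopoietins (ENSMUSG00000006386.15, chromosome 4, 94739289 to 94874976), was at 18.0, 12.9 and 10.5 CPM in DKO, 18.9, 11.8 and 12.9 CPM in Smarca1 KO, against 15.4, 16.5 and 15.5 CPM in WT. Both genes had the same 2 libraries above WT and the same 4 below WT as Cdh5.

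Pecam1, an adhesion molecule of endothelial junctions (ENSMUSG00000020717.19, chromosome 11, 106654217 to 106750628), was at 30.7, 22.5 and 22.3 CPM in DKO, 33.8, 23.6 and 26.2 CPM in Smarca1 KO, against 26.4, 29.6 and 29.4 CPM in WT. It too had both replicates 1 above WT and the 4 others below. Eng, a coreceptor for ligands of the TGF-beta family (ENSMUSG00000026814.16, chromosome 2, 32646595 to 32682669), was at 25.8, 22.2 and 22.9 CPM in DKO, 32.3, 22.0 and 22.5 CPM in Smarca1 KO, against 27.8, 30.1 and 29.4 CPM in WT. Eng departed from the other 4 in 1 respect: all 3 DKO libraries were below all WT libraries.

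**Figure D1:**
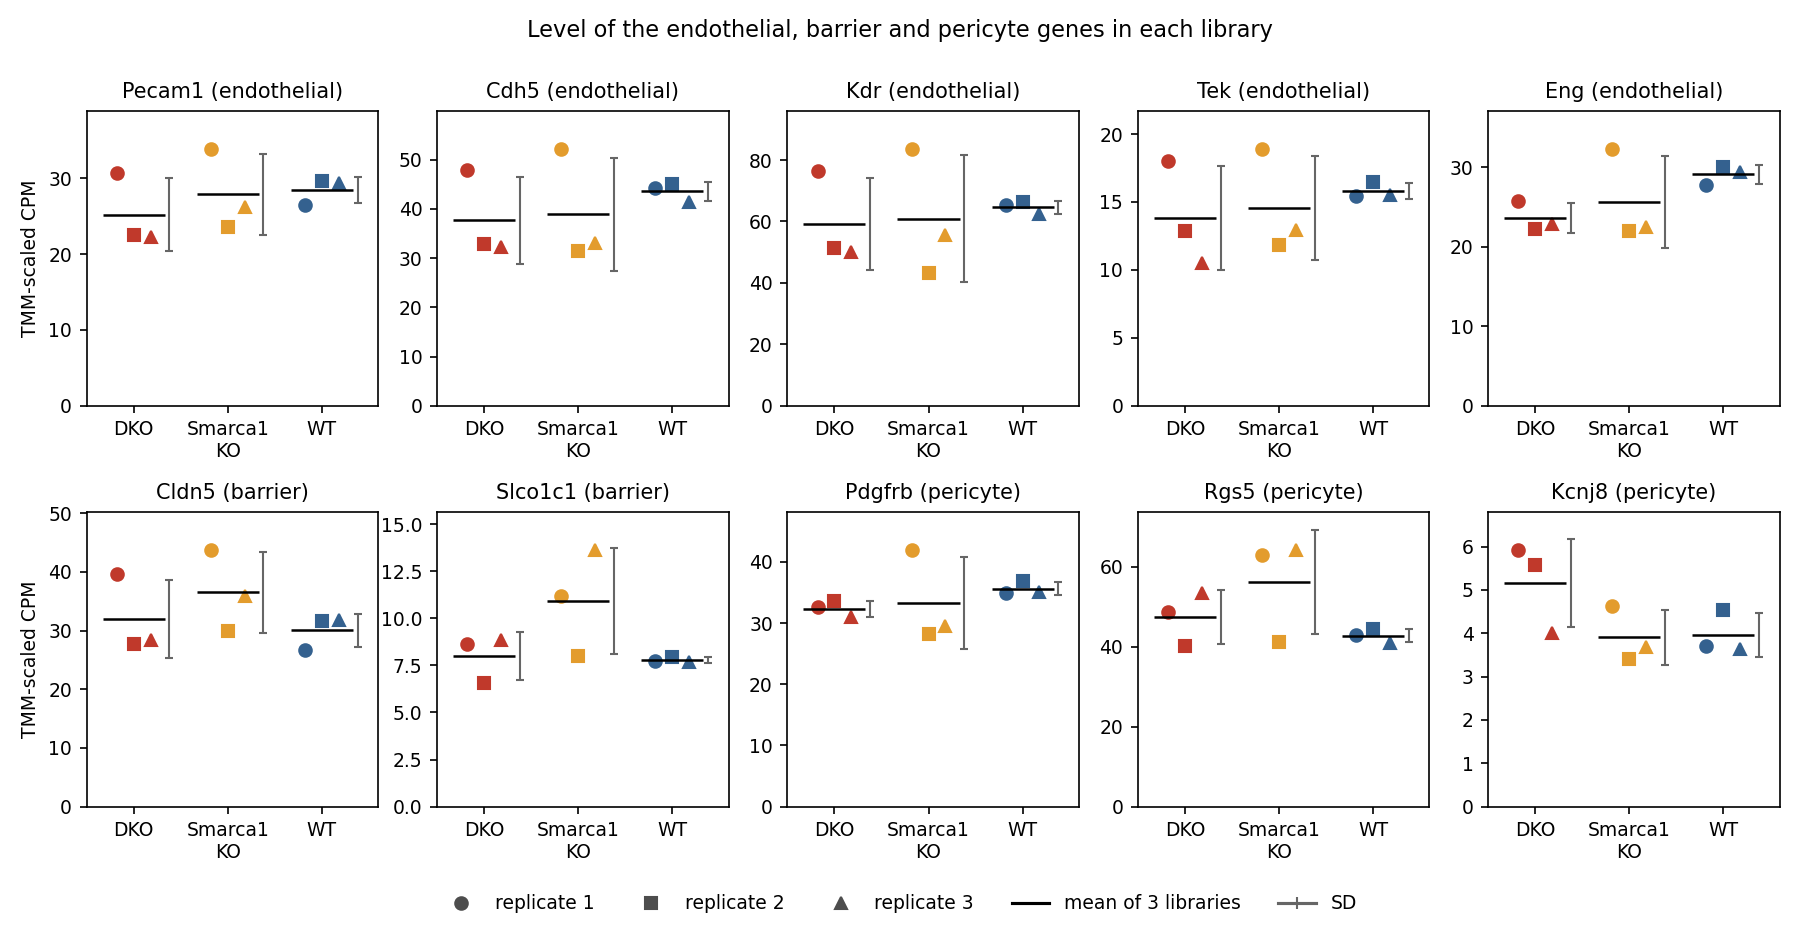
TMM-scaled CPM of the 10 genes in each library, with the mean (black line) and SD (grey bar) of the 3 libraries of DKO, Smarca1 KO and WT. In the top row, replicate 1 of DKO and of Smarca1 KO stand above the other libraries of their group, as for Kdr at 76.5 and 83.6 CPM, while the WT libraries lie close together.

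No endothelial member was called in any comparison at an adjusted p under 0.05 (edgeR quasi-likelihood test with Benjamini-Hochberg adjustment over 15773 genes). DKO against Smarca1 KO, which share the Smarca1 genotype and differ in Cre, gave log2 fold changes of −0.15 for Pecam1, −0.05 for Cdh5, −0.04 for Kdr, −0.09 for Tek and −0.12 for Eng, with adjusted p from 0.672 to 0.956. DKO against WT gave −0.18 for Pecam1, −0.21 for Cdh5, −0.13 for Kdr, −0.20 for Tek and −0.30 for Eng (adjusted p from 0.164 to 0.746). Smarca1 KO against WT gave −0.03 for Pecam1, −0.16 for Cdh5, −0.08 for Kdr, −0.11 for Tek and −0.18 for Eng (adjusted p from 0.489 to 0.944). The intervals are wide: the 95% interval for Cdh5 in DKO against WT ran from −0.66 to 0.24, and that for Eng from −0.60 to 0.0019. These data therefore do not show that the genotypes were alike in these genes.

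Of all 10 members, none was called in DKO against Smarca1 KO, in DKO against WT or in Smarca1 KO against WT, where 4.39%, 12% and 0.336% of all tested genes were called. At an unadjusted p under 0.05 stood 1 member in DKO against Smarca1 KO (Slco1c1), none in DKO against WT and 2 in Smarca1 KO against WT (Slco1c1 and Rgs5), while 18.4%, 31% and 18.9% of all genes did. DESeq2 also called none of them. The groups did not overlap for 2 members in DKO against WT, both lower in DKO (Eng and Pdgfrb), where 20.4% of all genes were lower without overlap. In Smarca1 KO against WT 1 member was higher without overlap (Slco1c1), against 12.5% of all genes, and in DKO against Smarca1 KO no member was separate, against 20.5% of all genes in either direction. The median log2 fold change of the 10 members was −0.10 in DKO against Smarca1 KO, −0.13 in DKO against WT and −0.06 in Smarca1 KO against WT, beside 0.0041, 0.0079 and 0.010 over all genes tested.

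The spread within the mutant groups exceeded the difference between genotypes for most members. The coefficient of variation over 3 libraries had a median over the 10 members of 19.4% in DKO, 22.9% in Smarca1 KO and 4.03% in WT. Over all genes at 10 CPM or more it was 5.07% in DKO, 6.35% in Smarca1 KO and 3.18% in WT. Replicate 1 was more than 1.2-fold above the next library for 5 of 10 members in DKO, 8 of 10 in Smarca1 KO and 0 of 10 in WT, where 9.12%, 8.80% and 3.75% of all genes were.

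A wider list of 32 other endothelial genes followed the same libraries. Their summed level was 412.4, 316.6 and 315.9 CPM in DKO, 465.7, 319.3 and 349.2 CPM in Smarca1 KO, against 389.9, 406.5 and 393.2 CPM in WT. Replicate 1 was the highest of its group for 29 of the 32 in DKO, 31 of 32 in Smarca1 KO and 7 of 32 in WT. The share of all genes with replicate 1 highest was not computed. For 20, 26 and 0 of the 32 it was more than 1.2-fold above the next library, against 9.12%, 8.80% and 3.75% of all genes.

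Markers of meninges and mesenchyme moved with the endothelial genes. The 19 measured markers summed to 1143, 600.2 and 545.7 CPM in DKO, 1065.5, 520.0 and 511.2 CPM in Smarca1 KO, against 876.4, 915.4 and 789.1 CPM in WT. Replicate 1 was the highest of its group for 19 of 19 in DKO, 19 of 19 in Smarca1 KO and 3 of 19 in WT. For 19, 17 and 1 of them it was more than 1.2-fold above the next library, against 9.12%, 8.80% and 3.75% of all genes. None of the 19 was at 0 in any library. Col3a1, the most abundant of them, was at 290.3, 104.2 and 92.7 CPM in DKO, 261.6, 96.2 and 105.0 CPM in Smarca1 KO, against 216.5, 230.8 and 191.1 CPM in WT. For red blood cell markers (13 genes) the summed CPM of DKO replicates 1 to 3 was 1459.7, 1106.9 and 882.8. It was 1626.1, 1469 and 1064.9 for Smarca1 KO, while WT had 1399.1, 1701 and 1877.6. For microglial markers (18 genes) the sums were 137.9, 105.9 and 129.9 for DKO. They were 111.5, 90.1 and 96.9 for Smarca1 KO, while WT had 91.1, 90.4 and 91.1. Both of these lists thus also had replicate 1 highest in DKO and in Smarca1 KO. A high replicate 1 was therefore not particular to endothelium and meninges. Neuronal markers (10 genes) summed to 5541, 6354 and 6527 CPM in DKO, 5472, 6144 and 6956 CPM in Smarca1 KO, against 5622, 5420 and 5217 CPM in WT, with none at 0. The 4 libraries low in the endothelial genes were thus above all WT libraries in neuronal markers, and both replicates 1 lay within the range of WT. The part of any of these cell types in the levels of the 10 members was not tested.

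**Figure D2:**
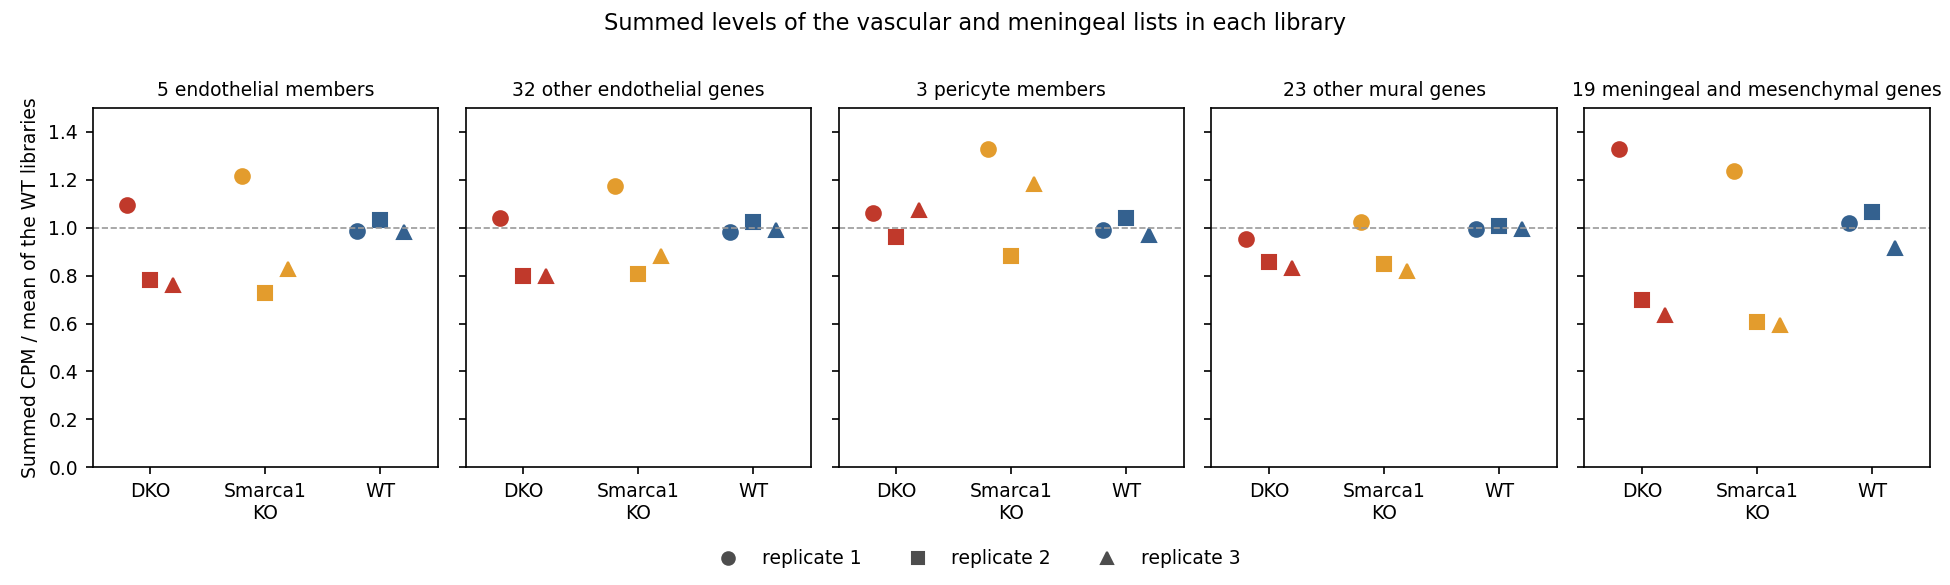
Summed CPM of 5 gene lists in each library, divided by the mean of the WT libraries (dashed line at 1), with DKO, Smarca1 KO and WT from left to right. The endothelial, other endothelial and meningeal panels have the same 2 libraries on top, replicate 1 of DKO and of Smarca1 KO, and the 4 other DKO and Smarca1 KO libraries below all WT libraries.

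The fold changes of the endothelial members depended on those 2 libraries. A fit without replicate 1 of DKO and of Smarca1 KO was run because both were known to be highest in meningeal markers. They are also the libraries highest in these endothelial genes, so leaving them out sets the direction of the change in part, and the values are a description without a test. In DKO against WT the log2 fold change was −0.42 for Cdh5, −0.37 for Eng, −0.34 for Pecam1, −0.44 for Tek and −0.35 for Kdr. In Smarca1 KO against WT it was −0.43 for Cdh5, −0.39 for Eng and −0.30 for Pdgfrb. These 3 were listed by an adjusted p under 0.05 and not by size. With only 1 library left out, Kdr was as low as −0.39 and Tek as low as −0.35 in Smarca1 KO against WT. In the fit without both replicates 1, the adjusted p of the 5 and 3 genes listed was under 0.05. There 8.57% and 1.91% of 15852 genes were called lower, and for the reason given nothing is read from that adjusted p. No member was called between DKO and Smarca1 KO, where 2.51% of all genes were called in either direction.

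The libraries left in that fit also differed in meningeal markers, at 545.7 to 600.2 CPM in DKO and 511.2 to 520.0 CPM in Smarca1 KO, against 789.1 to 915.4 CPM in WT. With all 9 libraries and the meningeal score as a covariate, no member was called in DKO against Smarca1 KO, DKO against WT or Smarca1 KO against WT, while 7.42%, 16.8% and 0.945% of all genes were. At an unadjusted p under 0.05 stood 4, 3 and 3 members, and 3606, 5435 and 3165 of all 15773 genes. The median log2 fold change of the 32 other endothelial genes with this covariate was −0.10, −0.15 and 0.0014. Eng alone was called in DKO against WT with other sets of libraries: without replicate 1 of Smarca1 KO (log2 fold change −0.30, adjusted p = 0.0276) and with only the DKO and WT libraries in the fit (−0.30, adjusted p = 0.0191). Over all alternatives run, its adjusted p in DKO against WT ranged from 0.0106 to 0.986.

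**Figure D3:**
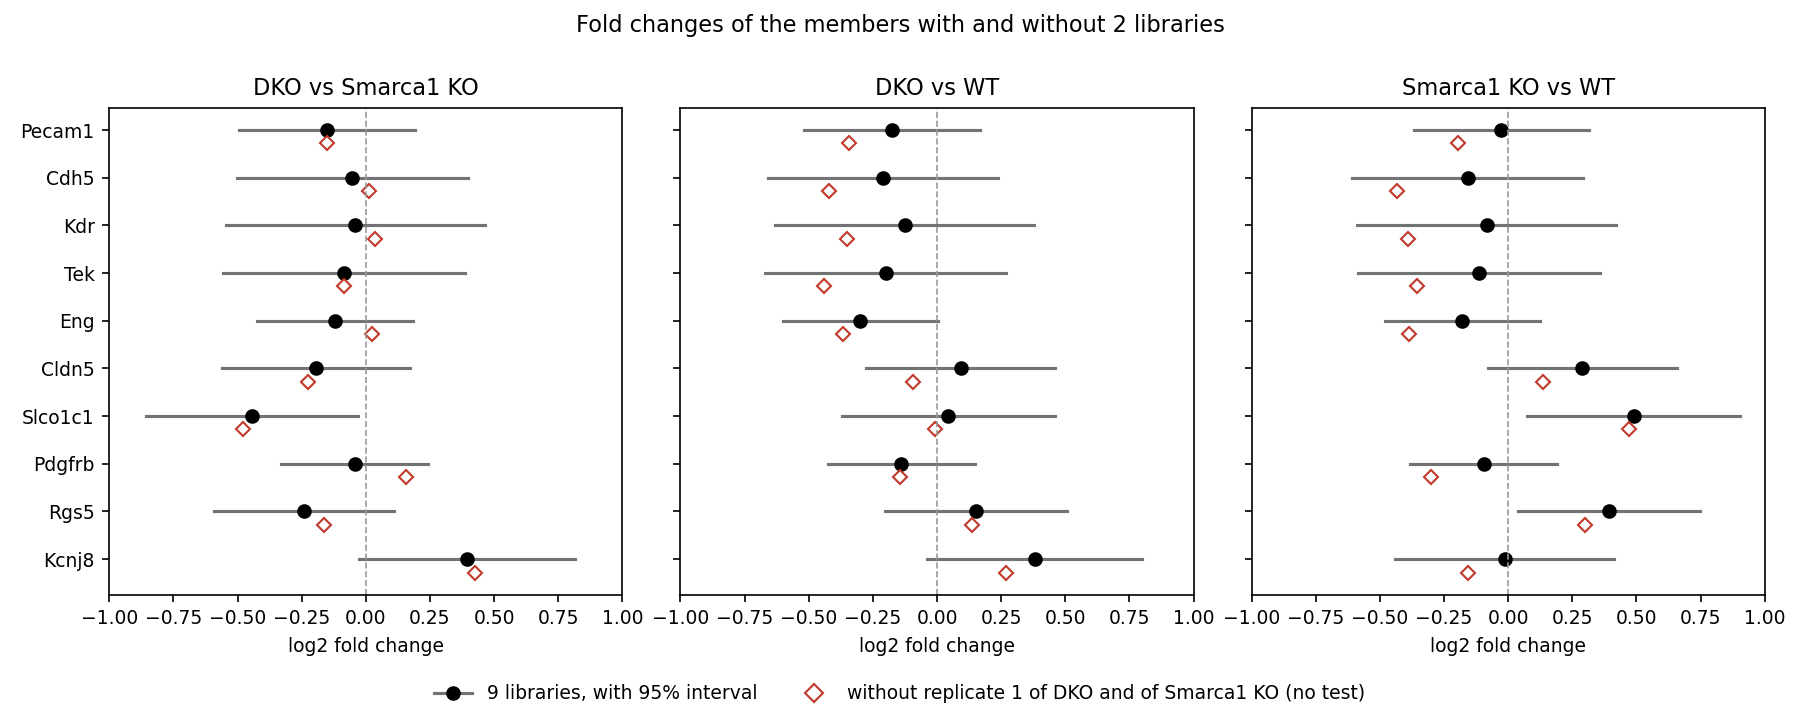
Log2 fold changes of the 10 genes for DKO over Smarca1 KO, DKO over WT and Smarca1 KO over WT (panels), from all 9 libraries (black points, 95% intervals) and without replicate 1 of DKO and of Smarca1 KO (open diamonds, a description with no test). All black points are uncalled. The diamonds leave out the 2 libraries highest in the endothelial genes, a choice that by itself moves them down against WT for those genes.

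The barrier members followed the endothelial ones only in part. Cldn5 (ENSMUSG00000041378.2, chromosome 16, 18776847 to 18778262) was at 39.7, 27.8 and 28.4 CPM in DKO, 43.7, 29.9 and 36.0 CPM in Smarca1 KO, against 26.7, 31.5 and 31.8 CPM in WT. Both replicates 1 were again high, but none of the remaining DKO and Smarca1 KO libraries was below all WT libraries. Its change on the log2 scale was −0.20 in DKO against Smarca1 KO (95% interval −0.56 to 0.17, adjusted p = 0.588), 0.09 in DKO against WT (−0.28 to 0.46, adjusted p = 0.743) and 0.29 in Smarca1 KO against WT (−0.08 to 0.66, adjusted p = 0.363).

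Slco1c1, a transporter of thyroid hormone at the blood-brain barrier (ENSMUSG00000030235.17, chromosome 6, 141524368 to 141570177), was at 8.62, 6.54 and 8.86 CPM in DKO, 11.2, 7.98 and 13.6 CPM in Smarca1 KO, against 7.73, 7.94 and 7.68 CPM in WT. All Smarca1 KO libraries were above all WT libraries, replicate 2 only just. The log2 fold change was −0.44 in DKO against Smarca1 KO (95% interval −0.86 to −0.03, edgeR adjusted p = 0.235) and 0.49 in Smarca1 KO against WT (0.07 to 0.90, edgeR adjusted p = 0.216). It was 0.04 in DKO against WT (−0.37 to 0.46, adjusted p = 0.898). The adjustment over all genes left none of the 3 called. Slco1c1 is also made in the choroid plexus, whose 10 markers summed to 554.5, 281.6 and 484.9 CPM in DKO, 379.4, 282.7 and 386.3 CPM in Smarca1 KO, against 201.4, 249.3 and 289.3 CPM in WT, with none at 0. Replicate 2 was low in both mutant groups for those markers and for Slco1c1, and their part in the Slco1c1 level was not tested.

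Among the pericyte members, Pdgfrb, the receptor for Pdgfb (ENSMUSG00000024620.11, chromosome 18, 61045150 to 61085061), was at 32.6, 33.5 and 31 CPM in DKO, 42.0, 28.2 and 29.6 CPM in Smarca1 KO, against 35.0, 36.8 and 35.1 CPM in WT. The DKO libraries were all below the WT libraries, by a log2 fold change of −0.14 (95% interval −0.42 to 0.15, adjusted p = 0.495). In Smarca1 KO replicate 1 was above WT and the other libraries were below it (log2 fold change −0.09 against WT, adjusted p = 0.726), and DKO against Smarca1 KO gave −0.04 (adjusted p = 0.907).

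Rgs5, a regulator of G protein signalling enriched in pericytes (ENSMUSG00000026678.10, chromosome 1, 169655501 to 169695813), was at 48.7, 40.2 and 53.4 CPM in DKO, 63.0, 41.1 and 64.2 CPM in Smarca1 KO, against 42.9, 44.4 and 41.0 CPM in WT. In both mutant groups replicate 2 was the low library and lay at the level of WT. The log2 fold change was −0.24 in DKO against Smarca1 KO (adjusted p = 0.469), 0.15 in DKO against WT (adjusted p = 0.549) and 0.39 in Smarca1 KO against WT (95% interval 0.04 to 0.75, edgeR adjusted p = 0.231).

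Kcnj8, the pore subunit of an ATP-sensitive potassium channel of pericytes (ENSMUSG00000030247.9, chromosome 6, 142564837 to 142571614), was the lowest member, at 5.92, 5.57 and 4.01 CPM in DKO, 4.63, 3.41 and 3.68 CPM in Smarca1 KO, against 3.71, 4.54 and 3.63 CPM in WT. DKO replicates 1 and 2 were the highest of the 9 libraries, while replicate 3 lay within the range of WT. The log2 fold change was 0.39 in DKO against Smarca1 KO (95% interval −0.03 to 0.81, adjusted p = 0.304), 0.38 in DKO against WT (−0.04 to 0.80, adjusted p = 0.199) and −0.01 in Smarca1 KO against WT (adjusted p = 0.979). Abcc9, the partner subunit of that channel and the neighbour of Kcnj8 on chromosome 6, was at 22.7, 24.4 and 22.1 CPM in DKO, 22.6, 18.5 and 23 CPM in Smarca1 KO, against 21.4, 25.1 and 21.7 CPM in WT. It overlapped between all genotypes (log2 fold change 0.02 in DKO against WT, adjusted p = 0.90).

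Levels were next set against the endothelial genes of the same library, a measure chosen after the values were seen. It is the log2 CPM of a gene minus the mean log2 CPM of the 5 endothelial members, so the scaling of the library cancels. Any gene that does not fall with those members rises on this scale in the libraries where they are low. The share of all genes separate between groups on this scale was not computed, so separation is not shown to be particular to the genes below. Cldn5 was at 0.18, 0.12 and 0.22 in DKO, 0.17, 0.30 and 0.42 in Smarca1 KO and −0.25, −0.10 and −0.02 in WT. Both mutant groups were above WT without overlap, by 0.30 in DKO and 0.42 in Smarca1 KO. Rgs5 was at 0.48, 0.65 and 1.13 in DKO, 0.69, 0.76 and 1.25 in Smarca1 KO and 0.43, 0.39 and 0.35 in WT, again without overlap (differences of 0.36 for DKO and 0.51 for Smarca1 KO).

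Slco1c1 was at −2.01, −1.96 and −1.46 in DKO, −1.80, −1.59 and −0.98 in Smarca1 KO and −2.03, −2.08 and −2.06 in WT on this scale. The DKO libraries exceeded WT by 0.25 and the Smarca1 KO libraries by 0.60, DKO replicate 1 only just. Kcnj8 was at −2.55, −2.18 and −2.59 in DKO, −3.06, −2.81 and −2.85 in Smarca1 KO and −3.08, −2.88 and −3.13 in WT. Relative Kcnj8 was higher in DKO than in Smarca1 KO by 0.46 and than in WT by 0.59 without overlap, and Smarca1 KO overlapped WT. Relative Pdgfrb overlapped in all 3 comparisons.

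With 3 libraries against 3 the exact two-sided permutation test cannot go below 0.10, which is the value reached by each separate pair, or 0.188 after Benjamini-Hochberg adjustment over the 30 relations computed. None of these differences passed a threshold of 0.05. The 15 further relations used the 32 other endothelial genes in place of the 5 members. Those genes followed the same libraries as the members, so this second scale is no independent check. On that scale the DKO minus WT difference was 0.29 for Cldn5, 0.24 for Slco1c1, 0.35 for Rgs5 and 0.58 for Kcnj8, and the Smarca1 KO minus WT difference was 0.38 for Cldn5, 0.56 for Slco1c1 and 0.47 for Rgs5, all without overlap.

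**Figure D4:**
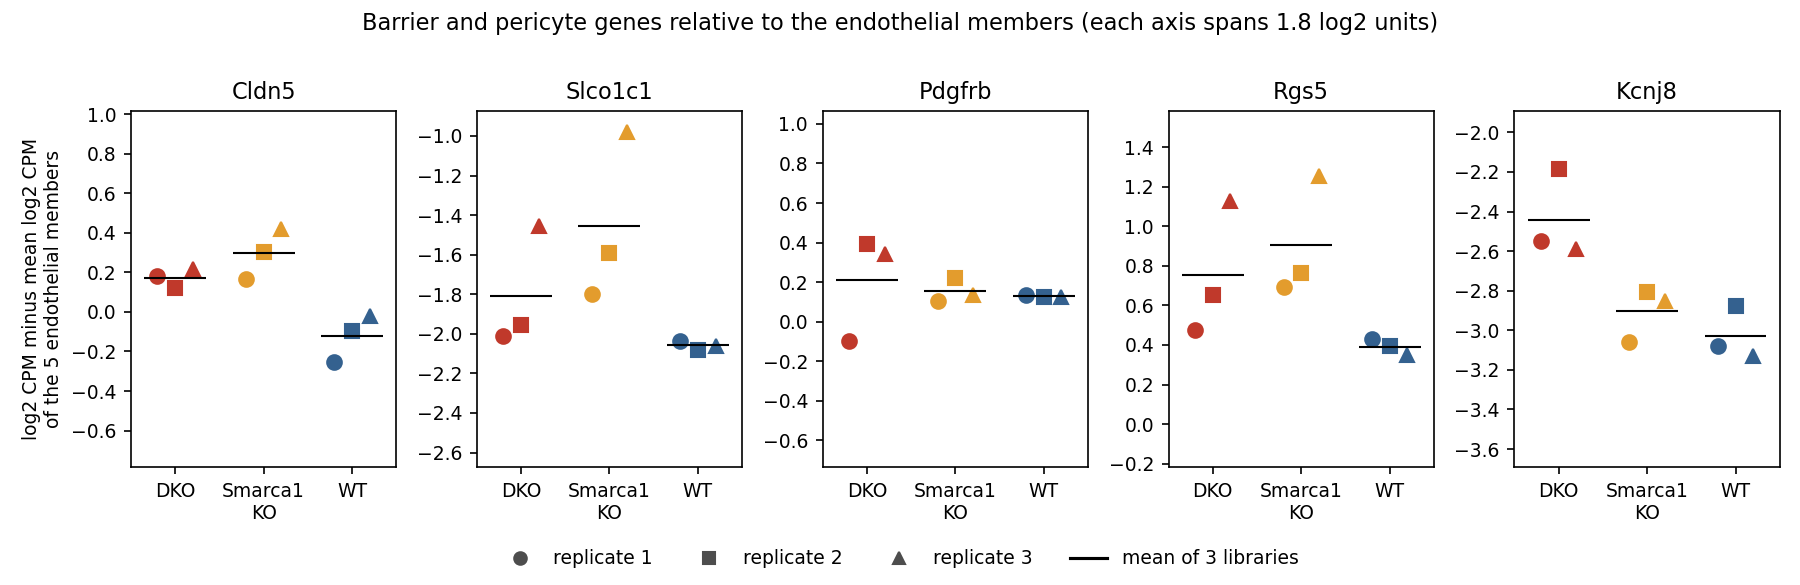
Log2 CPM of the 2 barrier and 3 pericyte genes minus the mean log2 CPM of the 5 endothelial genes, per library, with the mean of each group (line). Cldn5, Slco1c1 and Rgs5 lie above WT in all DKO and Smarca1 KO libraries, and Kcnj8 in the DKO libraries, while Pdgfrb overlaps between groups.

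The wider mural list, 23 tested genes of pericytes and smooth muscle, is described next. It summed to 345.3, 309.5 and 301.4 CPM in DKO, 371.0, 307.0 and 297.0 CPM in Smarca1 KO, against 359.9, 364.6 and 360.2 CPM in WT, with all DKO libraries below WT. Most of that gap was Notch3, a receptor that mural cells need, though bulk tissue does not show which cells its RNA came from. Without Notch3, a sum taken after the values were seen, the list was at 246.0, 217.1 and 216.0 CPM in DKO, 263.6, 206.0 and 212.1 CPM in Smarca1 KO, against 226.7, 238.7 and 230.0 CPM in WT, so that DKO replicate 1 was above all WT libraries and the other DKO libraries were below them. The log2 fold change was above 0 for 9 of the 23 in DKO against WT, with a median of −0.08. Of the 23, none was called in DKO against Smarca1 KO, 1 in DKO against WT (lower) and none in Smarca1 KO against WT. Of all genes 4.39%, 12% and 0.336% were called in either direction. At an unadjusted p under 0.05 stood 2, 4 and 2 of the 23, against 18.4%, 31% and 18.9% of all genes. The gene of this list that was called was Notch3. It was at 99.3, 92.4 and 85.4 CPM in DKO, 107.3, 101.0 and 84.9 CPM in Smarca1 KO, against 133.2, 125.9 and 130.2 CPM in WT. Notch3 fell in DKO against WT by 0.49 on the log2 scale (SE 0.084, edgeR adjusted p = 0.00911, lower in 3 of 3 libraries), and the call held whichever of the 9 libraries was left out (largest adjusted p = 0.0428). Smarca1 KO against WT gave −0.41 (adjusted p = 0.0807, lower in 3 of 3 libraries). The smallest p of the list in DKO against Smarca1 KO was that of P2ry14, at under 1 CPM in every library (log2 fold change 1.0, adjusted p = 0.221).

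Of the 32 other endothelial genes, none was called in DKO against Smarca1 KO, 1 in DKO against WT and none in Smarca1 KO against WT. Their median log2 fold changes were −0.10, −0.20 and −0.07. The called shares of all genes were 4.39%, 12% and 0.336%. At an unadjusted p under 0.05 stood 2, 5 and 2 of the 32, against 18.4%, 31% and 18.9% of all genes. Of the 131 genes of all 4 wider lists, DESeq2 called 8 in DKO against Smarca1 KO, 21 in DKO against WT and 7 in Smarca1 KO against WT. Of all 15773 genes it called 1183, 2877 and 727, so these counts do not set the lists apart. Palmd was the endothelial gene called, higher in DKO at 17.3, 15.5 and 18.2 CPM, against 13.3, 13.8 and 12.9 CPM in WT (log2 fold change 0.35, SE 0.095, edgeR adjusted p = 0.0425). In Smarca1 KO it was at 17.7, 16.1 and 20.04 CPM, above WT in 3 of 3 libraries (log2 fold change 0.43, adjusted p = 0.0992). The Palmd call in DKO against WT was lost without any 1 of 7 libraries (every DKO and WT replicate, and replicate 1 of Smarca1 KO), with an adjusted p of up to 0.145. Erg, a transcription factor of endothelium, had the smallest p of the list between DKO and Smarca1 KO (log2 fold change −0.47, adjusted p = 0.20).

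None of 4 ligands that reach the members' receptors was called in DKO against WT. Vegfa was at 72.5, 81.3 and 83.4 CPM in DKO, 83.6, 74.8 and 81.8 CPM in Smarca1 KO, against 75.6, 73.2 and 81.2 CPM in WT. The change in DKO against WT was 0.04 on the log2 scale (95% interval −0.11 to 0.19, adjusted p = 0.695). In the same comparison Angpt1 gave 0.06 (−0.15 to 0.26, adjusted p = 0.707), Angpt2 0.21 (−0.37 to 0.78, adjusted p = 0.626) and Pdgfb −0.01 (−0.33 to 0.31, adjusted p = 0.964). All 4 overlapped between DKO and WT, and the intervals of Angpt2 and Pdgfb leave room for sizeable change. Of the 31-mers of Angpt1, 14.1% occur in other genes.

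Other signalling genes of the 44 in the list of vascular ligands, receptors and targets were called: 2 in DKO against Smarca1 KO (1 higher, 1 lower), 9 in DKO against WT (all lower) and 1 in Smarca1 KO against WT (lower). Of all genes 4.39% were called in the first of these, while 6.35% were called lower in the second and 0.197% lower in the last. Nrp1, a coreceptor for Vegfa that neurons also use as a semaphorin receptor, was at 37.1, 36.7 and 34.5 CPM in DKO, 53.9, 58.9 and 75.7 CPM in Smarca1 KO, against 54.2, 54.8 and 51.0 CPM in WT. All DKO libraries were below every library of the other groups. Nrp1 fell in DKO against Smarca1 KO by 0.80 on the log2 scale (SE 0.108, edgeR adjusted p = 0.00491), a call that held without any 1 library (largest adjusted p = 0.0251). Against WT it fell by 0.56 (SE 0.108, edgeR adjusted p = 0.0136), which was not called without DKO replicate 3 (adjusted p = 0.0565), WT replicate 1 (0.0569) or WT replicate 2 (0.0545).

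In DKO against WT the smallest p-values of this list also included Smad5, which carries BMP signals (log2 fold change −0.25, SE 0.040, edgeR adjusted p = 0.00718, largest adjusted p without 1 library 0.0377). Itgb8, an integrin by which radial glia activate TGF-beta near vessels, was at 54.0, 52.3 and 47.4 CPM in DKO, 59.2, 55.9 and 53.0 CPM in Smarca1 KO, against 65.7, 63.3 and 63.5 CPM in WT. Itgb8 fell in DKO against WT by 0.33 (SE 0.059, edgeR adjusted p = 0.0117), and narrowly missed the threshold without WT replicate 1 (adjusted p = 0.0527). Notch1 fell in DKO against WT by 0.24 (adjusted p = 0.0186) and in Smarca1 KO against WT by 0.31 (adjusted p = 0.0387). In DKO against WT it was not called once DKO replicate 3 or any WT replicate was left out (adjusted p of 0.0540 to 0.0709), and without any 1 of 7 libraries, DKO replicate 1 and Smarca1 KO replicate 2 excepted, it was not called in Smarca1 KO against WT (largest adjusted p = 0.18). Vegfb, Apln, Pgf, Hey1 and Notch4, named after their values were seen as the other 5 genes called, fell in DKO against WT by 0.39, 0.45, 0.68, 0.53 and 0.39, and each call was lost without 4 to 7 of the 9 libraries. Smad1 was called higher in DKO than in Smarca1 KO (log2 fold change 0.16, adjusted p = 0.0481), and not without any 1 of the 9 libraries (largest adjusted p = 0.147). With the score of 4 Y-linked genes as a covariate, whose variance lay largely between genotypes (R2 = 0.771), none of the calls of the 4 wider lists remained in DKO against Smarca1 KO or in DKO against WT. For Nrp1 and Wnt7b the fold changes were no nearer 0 with that covariate. For the other genes of these lists called in DKO against WT they were nearer 0. Hey1 was at −0.09, Notch4 at −0.10, Palmd at 0.12, Notch3 at −0.24 and Itgb8 at −0.18. Vegfb at −0.355 and Pgf at −0.63 moved less. The cause was not tested. Nrp1 gave −1.07 in DKO against Smarca1 KO (edgeR adjusted p = 0.0748) and −0.87 in DKO against WT (edgeR adjusted p = 0.265), and Wnt7b gave −0.49 (edgeR adjusted p = 0.285) and −0.42 (edgeR adjusted p = 0.578).

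Itgb8 and Notch1 are also genes of radial glia, the neural progenitors of the cortex. The 11 markers of these cells summed to 2620, 2416 and 2348 CPM in DKO, 2481, 2438 and 2223 CPM in Smarca1 KO, against 2598, 2666 and 2629 CPM in WT, with none at 0. Replicate 1 had the highest sum of its group for these markers too, in DKO and in Smarca1 KO. In DKO against WT 3 of the 11 were called lower (Hes1, Hes5 and Notch2) and 2 higher (Slc1a3 and Fabp7). Of all genes 12% were called in either direction and 6.35% lower. Without overlap 8 of the 11 were lower, against 20.4% of all genes. In Smarca1 KO against WT none was called and 7 were lower without overlap, against 13.6% of all genes. Their part in the calls of Itgb8, Notch1, Notch3 and the other genes was not tested.

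**Figure D5:**
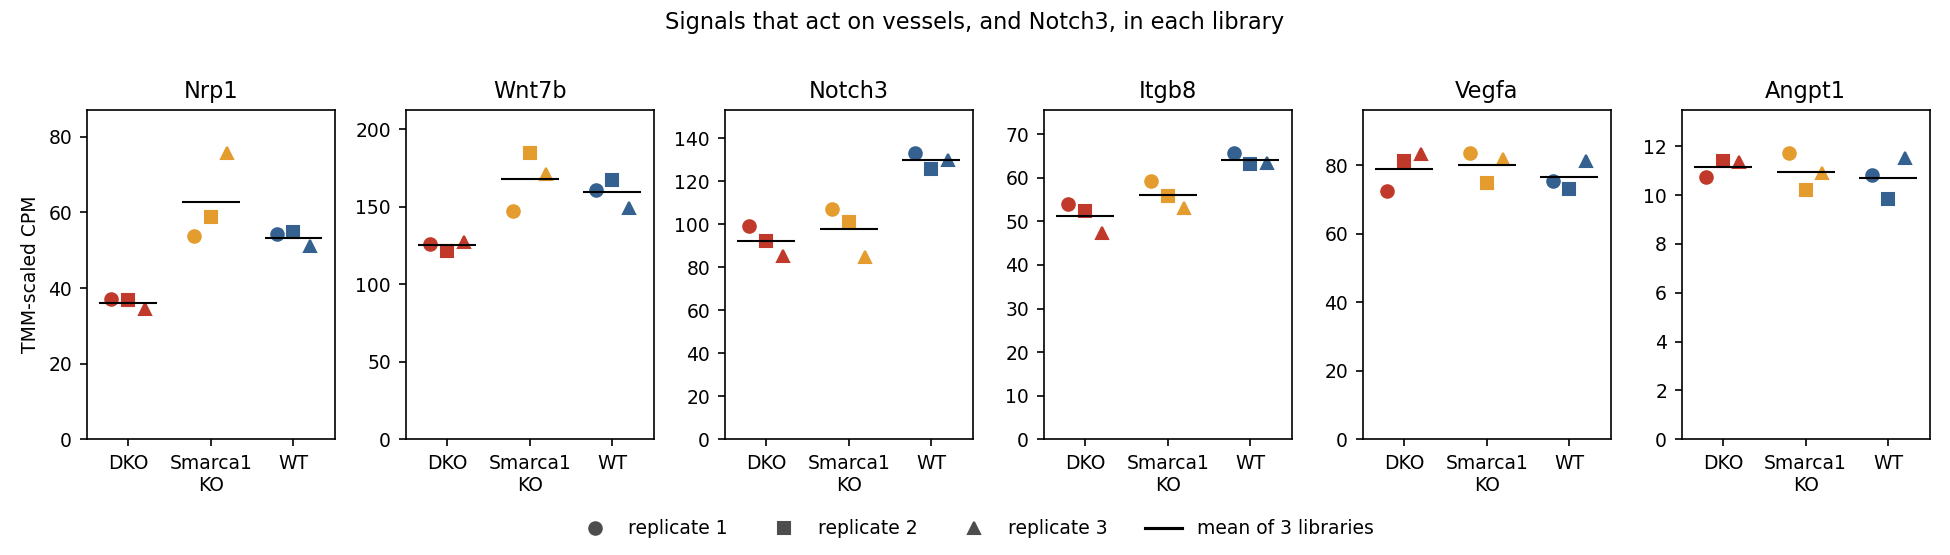
TMM-scaled CPM of the ligands Wnt7b, Vegfa and Angpt1, the coreceptor Nrp1, the receptor Notch3 and the integrin Itgb8 in each library. Lines are the mean of each group. Nrp1 and Wnt7b are lowest in DKO, Notch3 and Itgb8 are lower in both DKO and Smarca1 KO than in WT, and Vegfa and Angpt1 overlap between all groups.

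The barrier list held 32 transporters, junction genes and parts of the Wnt pathway. In it 1 gene was called in DKO against Smarca1 KO, 1 in DKO against WT and none in Smarca1 KO against WT. Over all genes 4.39%, 12% and 0.336% were called. The median log2 fold changes of the list were 0.014, −0.014 and −0.03. At an unadjusted p under 0.05 stood 4, 8 and 5 of its genes, against 18.4%, 31% and 18.9% of all genes. Both calls of the list were Wnt7b, a ligand that neural progenitors send to brain endothelium. Wnt7b was at 126.0, 121.7 and 127.3 CPM in DKO, 147.5, 184.6 and 171.3 CPM in Smarca1 KO, against 161.1, 167.1 and 149.4 CPM in WT. Every DKO library was below every other library. It fell by 0.42 against Smarca1 KO (SE 0.076, edgeR adjusted p = 0.0154) and by 0.35 against WT (SE 0.076, edgeR adjusted p = 0.0207). The call against Smarca1 KO was lost without DKO replicate 2 (adjusted p = 0.0654) or 3 (0.0521), and that against WT without DKO replicate 2 (0.0744) or 3 (0.0639) or WT replicate 1 (0.0762) or 2 (0.0839). With only the DKO and Smarca1 KO libraries in the fit, the call against Smarca1 KO was also lost (edgeR adjusted p = 0.0636).

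Slco1a4, a barrier transporter in the same gene cluster as Slco1c1, was at 4.41, 2.20 and 2.87 CPM in DKO, 2.70, 2.25 and 3.28 CPM in Smarca1 KO, against 1.67, 2.18 and 2.12 CPM in WT. Both mutant groups were above WT without overlap, by a margin of under 0.1 CPM between the nearest libraries. The log2 fold change in DKO against WT was 0.67 (95% interval 0.08 to 1.27, edgeR adjusted p = 0.118). In Smarca1 KO against WT the smallest p of the barrier list was that of Tfrc, the transferrin receptor (log2 fold change −0.21, adjusted p = 0.206).

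Over the 9 libraries, the genes most like the mean log2 profile of the 7 endothelial and barrier members, among 12987 genes ranked by Pearson r, were Adamtsl2 (r = 0.969), Timp3 (0.966), P3h1 (0.965), Angptl4 (0.957) and Lama4 (0.957). Lama4, a laminin of the vessel basement membrane, was at 39.1, 27.0 and 26.8 CPM in DKO, 43.4, 22.0 and 31.8 CPM in Smarca1 KO, against 32.4, 35.9 and 32.8 CPM in WT, so it had the same 2 high libraries as Kdr. The 3 pericyte members shared little of a profile, at r = 0.13 for Pdgfrb and Rgs5, 0.34 for Pdgfrb and Kcnj8 and 0.002 for Rgs5 and Kcnj8. Rgs5 was closer to Slco1c1 (0.94) and Pdgfrb to Eng (0.89). The mean of the 3, which is thus no common pericyte pattern, was closest to Cobll1 (0.945), Plxdc2 (0.944), Igf1 (0.929), Itga2 (0.926) and Zic5 (0.925). Zic5 was at 31.3, 23.1 and 19.95 CPM in DKO, 29.6, 11.9 and 25.1 CPM in Smarca1 KO, against 17.6, 20.2 and 18.6 CPM in WT, with Smarca1 KO replicate 2 lowest. These points share libraries and genotypes, and the ranking is a description without a test.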

How the data were processed

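RNA was measured in 9 stranded mRNA libraries, 3 each of DKO, Smarca1 KO and WT, grouped by the labels. The authors deposited estimated counts per transcript from Salmon 1.4.0. The submitters' processing notes give that tool and mm10, and list DESeq2 with no role. The deposited tables give TPM (transcripts scaled to a fixed total per library) and effective lengths beside the estimated counts, per the file headers. Whether counting used strand is not given in the sources used here.

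Of 116546 transcripts, 115977 matched GENCODE M21 (GRCm38), and the 569 unmatched held 0.104% to 0.116% of reads. Counts were summed to 35498 genes and rounded. Totals were 27466046 to 46007527 per library, and reads carried no known molecular identifiers. No libraries agreed within sampling noise (chi-square per degree of freedom at least 3.63).

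edgeR 4.0.16 (limma 3.58.1, R 4.3.3) was fitted to all 9 libraries with TMM scaling (factors 0.991 to 1.02), filterByExpr (15773 genes kept), quasi-likelihood tests and Benjamini-Hochberg adjustment over those genes. Calls are at an adjusted p under 0.05. Over all genes the biological coefficient of variation was 10.2%. The procedure was tested on simulated data. Intervals are at 95%. DESeq2 1.42.0 was an alternative. Others were RLE scaling, no filter, only the groups compared, length offsets, a replicate block, Y-linked and meningeal covariates, and libraries left out.

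The members and gene lists were chosen with earlier results of these data known. Of 20 meningeal genes listed, 19 were matched. Named genes were the members, Smarca5 and Smarca1, set neighbours and ligands, up to 4 called genes of each wider list by smallest p or else the smallest, the 5 genes most like each profile (mean log2 CPM at least 1), and the most abundant of other markers. A shared 31-mer is a run of that length found in transcripts of another gene. Promoter sequences are from RefSeq.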

Additional observations from a re-analysis of the deposited data

How the results depend on the processing

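None of the 10 members was called with all 9 libraries, and the same held under RLE scaling, no filter, DESeq2, length offsets, the replicate block and the Y-linked and meningeal covariates. The members called lower in DKO than in WT numbered 1 with only those groups in the fit (Eng) and 5 without replicate 1 of DKO and of Smarca1 KO, which also gave 3 in Smarca1 KO against WT. Leaving out those 2 libraries, the highest in these genes, sets that direction in part, so the 5 and 3 are no support for it. Leaving out 1 library gave 0 to 1 members called in DKO against WT, the 1 being Eng without replicate 1 of Smarca1 KO, and 0 in the other comparisons. Members near a log2 fold change of 0 changed sign easily, and with this spread the direction of an uncalled member is not settled.

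Counts of called genes are given for DKO against Smarca1 KO first, for DKO against WT next and for Smarca1 KO against WT last. Genes of the 4 wider vascular lists numbered 3, 12 and 1 with all libraries. They numbered 8, 21 and 7 with DESeq2, 1, 27 and 0 with only the compared groups, 0, 0 and 1 with the Y-linked covariate, 12, 22 and 3 with the meningeal covariate, and 2, 46 and 19 without both replicates 1. Leaving out 1 library gave 1 to 4, 2 to 22 and 0 to 1. In DKO against WT 5 were called without DKO replicate 2, 4 without DKO replicate 3, 22 without Smarca1 KO replicate 3, and 2, 3 and 5 without WT replicate 1, 2 or 3. In DKO against Smarca1 KO 1 was called without DKO replicate 2 or 3. None was called in Smarca1 KO against WT without DKO replicate 2 or 3, Smarca1 KO replicate 3 or any WT replicate. Notch4 moved to −0.08 in DKO against WT with length offsets (adjusted p = 0.777).

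Of all genes, 692, 1887 and 53 were called. DESeq2 called 1183, 2877 and 727, the compared groups alone 181, 3443 and 62, the Y-linked covariate 11, 6 and 57, and the meningeal covariate 1170, 2657 and 149. Length offsets gave 389 in DKO against Smarca1 KO, no filter gave 90 in Smarca1 KO against WT, and leaving out both replicates 1 gave 398 in DKO against Smarca1 KO and 607 in Smarca1 KO against WT. Leaving out 1 library gave 286 to 795, 450 to 3178 and 14 to 72. In DKO against Smarca1 KO the count moved by over 1.5 times without any library but Smarca1 KO replicates 1 and 3 (286 to 444), in DKO against WT without DKO replicate 2 (715) or 3 (543), Smarca1 KO replicate 3 (3178) or WT replicate 1 (450), 2 (541) or 3 (521), and in Smarca1 KO against WT without Smarca1 KO replicate 3 (31) or WT replicate 1 (19), 2 (14) or 3 (21).

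The titles number the replicates 1 to 3 in each group, but deviations of same-numbered libraries correlated at −0.06 to 0.35 and not all above 0.1, so the numbers were not taken as pairs. With the replicate block, 529, 1745 and 29 genes, 2, 16 and 0 vascular genes and 0, 0 and 0 members were called.

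With the Y-linked covariate the sign of the log2 fold change turned in DKO against Smarca1 KO for Pecam1 (0.051), Cdh5 (0.36), Kdr (0.28), Tek (0.33), Eng (0.20) and Pdgfrb (0.33). It turned in DKO against WT for Pecam1 (0.038), Cdh5 (0.22), Kdr (0.21), Tek (0.24), Eng (0.033), Slco1c1 (−0.45), Pdgfrb (0.26), Rgs5 (−0.10), Vegfa (−0.0145) and Pdgfb (0.16), and in Smarca1 KO against WT for Kcnj8 (0.028). With the meningeal covariate it turned for Pdgfb in DKO against WT (0.047) and for Pecam1 (0.055), Kdr (0.021) and Kcnj8 (0.059) in Smarca1 KO against WT, and with length offsets for Abcc9 in DKO against WT (−0.021). Without both replicates 1 it turned in DKO against Smarca1 KO for Cdh5 (0.014), Kdr (0.038), Eng (0.022) and Pdgfrb (0.16), and in DKO against WT for Cldn5 (−0.093) and Slco1c1 (−0.0073). The cause was not tested.

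Leaving out 1 library at a time also turned signs, over these ranges. In DKO against Smarca1 KO they were −0.32 to 0.016 for Pecam1, −0.26 to 0.22 for Cdh5, −0.27 to 0.26 for Kdr, −0.32 to 0.15 for Tek, −0.22 to 0.086 for Eng and −0.15 to 0.16 for Pdgfrb. In DKO against WT they were −0.093 to 0.18 for Cldn5, −0.038 to 0.16 for Slco1c1, −0.025 to 0.095 for Abcc9, −0.0033 to 0.11 for Angpt1, −0.021 to 0.50 for Angpt2 and −0.085 to 0.086 for Pdgfb. In Smarca1 KO against WT they were −0.20 to 0.077 for Pecam1, −0.39 to 0.11 for Kdr, −0.35 to 0.011 for Tek, −0.30 to 0.0070 for Pdgfrb and −0.16 to 0.091 for Kcnj8.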
